A study of Mus musculus with 32 samples.

Results

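Macrophages of population C were compared between tumour-bearing mice that lacked the TNF receptor TNFR1 and mice that carried it. The 8 arrays were all those of sorted population C, out of 16 arrays of sorted cells and 32 samples in the series: 4 came from hosts whose genotype included TNFR1-/- and 4 from hosts whose genotype did not. The TNFR1-positive arrays were 2 from WT hosts and 2 from Myd88flox/flox; tie2-Cre hosts, and the TNFR1-null arrays were 2 from TNFR1-/- hosts and 2 from Myd88flox/flox; tie2-Cre; TNFR1-/- hosts, called the double deletion below. Each arm therefore held 2 Myd88-deleted arrays, and Myd88 status entered the comparison as a block. All hosts carried transplanted EG7 thymoma, a T-lymphoma line that is not itself of the host's genotype, and population C was sorted from the tumours as CD11b-positive, Ly6C-negative, MHC class II-positive cells. The Tie2 promoter drives Cre in endothelium and in most blood cells, so Myd88 was deleted in more cells than macrophages, and the TNFR1 deletion was germline. Host ages, the number of mice behind an array and whether the 2 arrays of a genotype came from different mice are not stated in the labels, so the p-values measure the spread between these arrays, which may be technical.

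TNFR1, encoded by Tnfrsf1a, is the receptor through which tumour necrosis factor (TNF) acts on most cells. When TNF binds, the adaptor Tradd and the kinase Ripk1 assemble a complex that activates the kinases of the NF-kB and MAP kinase pathways, and under other conditions a complex with caspase 8 or Ripk3 that kills the cell. In macrophages NF-kB switches on inflammatory genes, whereas the cytokines IL-4 and IL-13 act through the transcription factor STAT6 to induce a different set, called alternative activation, which includes lectins, the resistin-like factor Retnla and the chemokines Ccl17 and Ccl22. Myd88 is the adaptor of most Toll-like receptors and of the IL-1 receptor and reaches NF-kB by a separate route. The series' design text states the role of TNFR1 and Myd88 signalling as the question behind the sorted arrays.

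Values are log2 RMA signals, so a difference of 1 is a 2-fold change, and a difference is given as TNFR1-null minus TNFR1-positive with its standard error from limma. A gene was called when its Benjamini-Hochberg adjusted p was under 0.05 over the 15193 genes tested. The arrays had medians of 5.31 to 5.40 and correlated with the other array of their genotype at 0.977 to 0.987 across genes. The macrophage markers Csf1r, Cd68, Mertk, Adgre1 and C1qa to C1qc and the class II genes H2-Aa, H2-Ab1 and H2-Eb1 lay above the 40th percentile of signals on 8 of 8 arrays, and Ly6c1 on 0 of 8. Ly6c2 lay above it on 8 of 8, at 7.88 to 9.99 against 11.31 to 12.93 in the Ly6C-positive population A.

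Hosts of both sexes were present. The female-specific transcript Xist, which silences one X chromosome, read 10.14 and 10.29 in WT, 5.60 and 9.83 in TNFR1-/-, 4.97 and 5.68 in Myd88-deleted and 5.19 and 10.44 in double-deletion arrays. The Y-linked Eif2s3y read 6.29 and 4.40, 6.91 and 5.92, 6.95 and 6.63, and 7.33 and 3.38 on the same arrays, so both WT arrays and TNFR1-/- array 2 had high Xist together with Eif2s3y above the level of the double-deletion array 2, WT array 2 by the least. Xist was high on 2 arrays and low on 2 arrays in each arm, and its difference between the arms was -0.01 ± 1.17 (limma adjusted p = 1). With Xist level (high above 8) added as a block after these values were seen, 466 genes were called in place of 477, and 441 were called in both fits, among them the 30 genes of largest change named below, which are the 15 largest called rises and the 15 largest called falls among genes whose arms did not overlap.

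Loss of TNFR1 came with a change in 477 of the 15193 genes (3.14%), of which 238 were higher (1.57%) and 239 lower (1.57%). Among genes whose arms did not overlap, the rises were led by Ccl17, Mgl2, Retnla, Cd209d and Ccl22, members of the alternative activation list, at 4.68- to 7.35-fold, and the falls by H2-M2, Saa3, Hp, Gpr84 and Lyz1, at 4.32- to 11.1-fold. The 4 and 4 arrays did not overlap for 200 of the genes called higher and 217 of those called lower, against 488 (3.21%) and 531 (3.5%) of all genes tested. Most changes were modest: the median size of a called change was 0.64, and 32 rises and 51 falls were at least 2-fold. The median difference of all genes was -0.0025, with 5% of genes below -0.26 and 5% above 0.29. The Myd88 deletion, estimated in the same 8 arrays, came with 29 called genes (0.191%), of which 7 were also called for TNFR1. Without TNFR1-/- replicate 2 the TNFR1 count was 296, without Myd88-deleted replicate 1 it was 286 and without replicate 2 it was 275, and without double-deletion replicate 1 it was 315. A fit over all 16 sorted arrays called 180, and 32 of the 75 called genes that were named by rule lost their call in it, Sema7a (adjusted p = 0.0775) and Mmp9 (adjusted p = 0.0685) alone among the 30 of largest change.

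The targeted gene was not called. Tnfrsf1a read 8.55 and 7.81 in WT, 8.43 and 8.04 in Myd88-deleted, 7.56 and 7.87 in TNFR1-/- and 7.55 and 7.70 in double-deletion arrays. The difference was -0.54 ± 0.15 (limma adjusted p = 0.0924), and WT array 2 lay within the TNFR1-null range. Without that array it was -0.70 (adjusted p = 0.0114). The labels do not say whether its probe set covers the deleted part, so this level is no check of the genotypes. Myd88 read 9.78 and 9.22 in WT, 9.72 and 10.05 in TNFR1-/-, 7.49 and 7.53 in Myd88-deleted and 8.76 and 7.97 in double-deletion arrays. It was lower on all 4 deleted arrays than on the others, and the double-deletion pair lay above the Myd88-deleted pair.

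**Figure D1:**
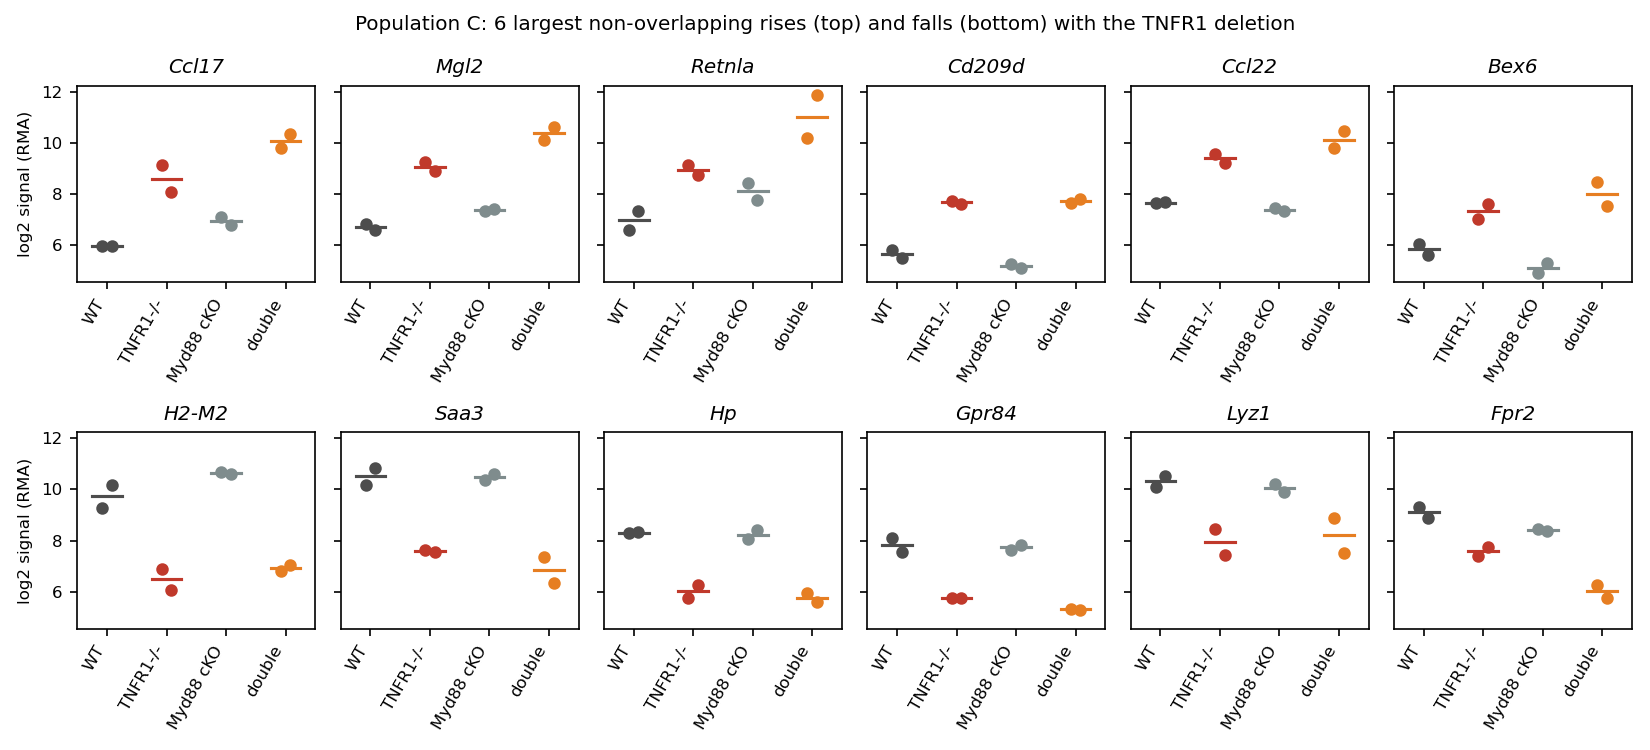
Log2 RMA signal of 12 genes with the TNFR1 deletion in population C, the 6 largest called rises and the 6 largest called falls among genes whose arms did not overlap; each point is 1 array, each short line the mean of 2 arrays, and the columns are WT, TNFR1-/-, Myd88flox/flox; tie2-Cre (Myd88 cKO) and the double deletion. By that choice the 4 TNFR1-null arrays lie on one side of the 4 TNFR1-positive arrays in each panel; the distance between the arms and the spread within each pair are what differ.

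Of 33 alternative activation genes tested, 14 rose and 1 fell (45.5% called, against 3.14% of all genes). The median difference was 0.33 beside -0.0025 for all genes. Members of this and the following lists were chosen with earlier results of these data known. Their counts therefore describe these arrays and test nothing. Ccl17, which attracts Ccr4-bearing T cells, read 5.99 and 5.96 in WT and 7.10 and 6.80 in Myd88-deleted arrays, against 9.14 and 8.07 in TNFR1-/- and 9.80 and 10.35 in double-deletion arrays. All TNFR1-null arrays lay above all others, and the difference was 2.88 ± 0.20 (adjusted p = 5.79e-06). Ccl22, the second ligand of Ccr4, read 7.35 to 7.69 on the TNFR1-positive and 9.20 to 10.45 on the null arrays (2.23 ± 0.20, adjusted p = 4e-05).

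Several of the genes that rose encode lectins, which bind sugars on microbes and cells. Mgl2 read 6.82 and 6.60 in WT, 7.33 and 7.40 in Myd88-deleted, 9.24 and 8.89 in TNFR1-/- and 10.11 and 10.63 in double-deletion arrays (2.68 ± 0.16, adjusted p = 7.67e-07). Cd209d, a relative of the human lectin DC-SIGN, read 5.10 to 5.82 without and 7.63 to 7.81 with the TNFR1 deletion (2.29 ± 0.13). The null arrays were tightly grouped for Cd209d and spread for Mgl2, where the double-deletion pair was highest. Cd209e rose by 1.36 ± 0.23 from signals of 4.34 to 4.70 (adjusted p = 0.0529 with a trended, robust variance). Those TNFR1-positive signals lay below the 40th percentile, which a gene had to pass on at least 4 arrays to be tested. Cd209e therefore entered the test only through its TNFR1-null arrays, and the lack of overlap between its arms follows from that filter. Clec10a, the close relative of Mgl2, rose by 0.86 ± 0.13. Whether the probes tell Cd209d from Cd209e, or Mgl2 from Clec10a, was not tested.

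Retnla read 6.59 and 7.36 in WT, 8.44 and 7.77 in Myd88-deleted, 9.14 and 8.75 in TNFR1-/- and 10.18 and 11.87 in double-deletion arrays. The arms did not overlap, although the highest TNFR1-positive array (8.44) and the lowest null array (8.75) were close, and the difference was 2.44 ± 0.32 (adjusted p = 0.000823). This call was lost with a trended, robust variance (adjusted p = 0.0623). The eosinophil-attracting chemokine Ccl24 rose by 1.67 ± 0.36 with arms that overlapped (7.06 to 9.73 and 9.18 to 11.77). The transcription factors Irf4 and Pparg rose by 1.23 ± 0.15 and 0.87 ± 0.13, and the lipoxygenase Alox15 by 1.01 ± 0.19, a call lost in the 16-array fit (adjusted p = 0.238) and without the Myd88 block (adjusted p = 0.0638). Socs2 and Cish, cytokine-induced inhibitors of STAT signalling, rose by 1.40 ± 0.18 and 0.64 ± 0.13.

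Other members of the list did not pass the test. Arg1, the arginase often used to mark alternative activation, differed by 0.03 ± 0.22 (adjusted p = 0.98), the chitinase-like Chil3 by -0.58 ± 0.43 (adjusted p = 0.682), the mannose receptor Mrc1 by 0.55 ± 0.16 (adjusted p = 0.099) and Stat6 itself by -0.02. Il13ra1, a chain of the IL-4 and IL-13 receptor, fell by 0.55 ± 0.13. Il13 and the eosinophil granule genes Epx and Prg2 differed by 0.16, 0.05 and -0.16 and were not called, and Il4 and Il5 were too dim to be tested. The list's count of rises was 12 to 16 when each array was left out in turn.

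**Figure D2:**
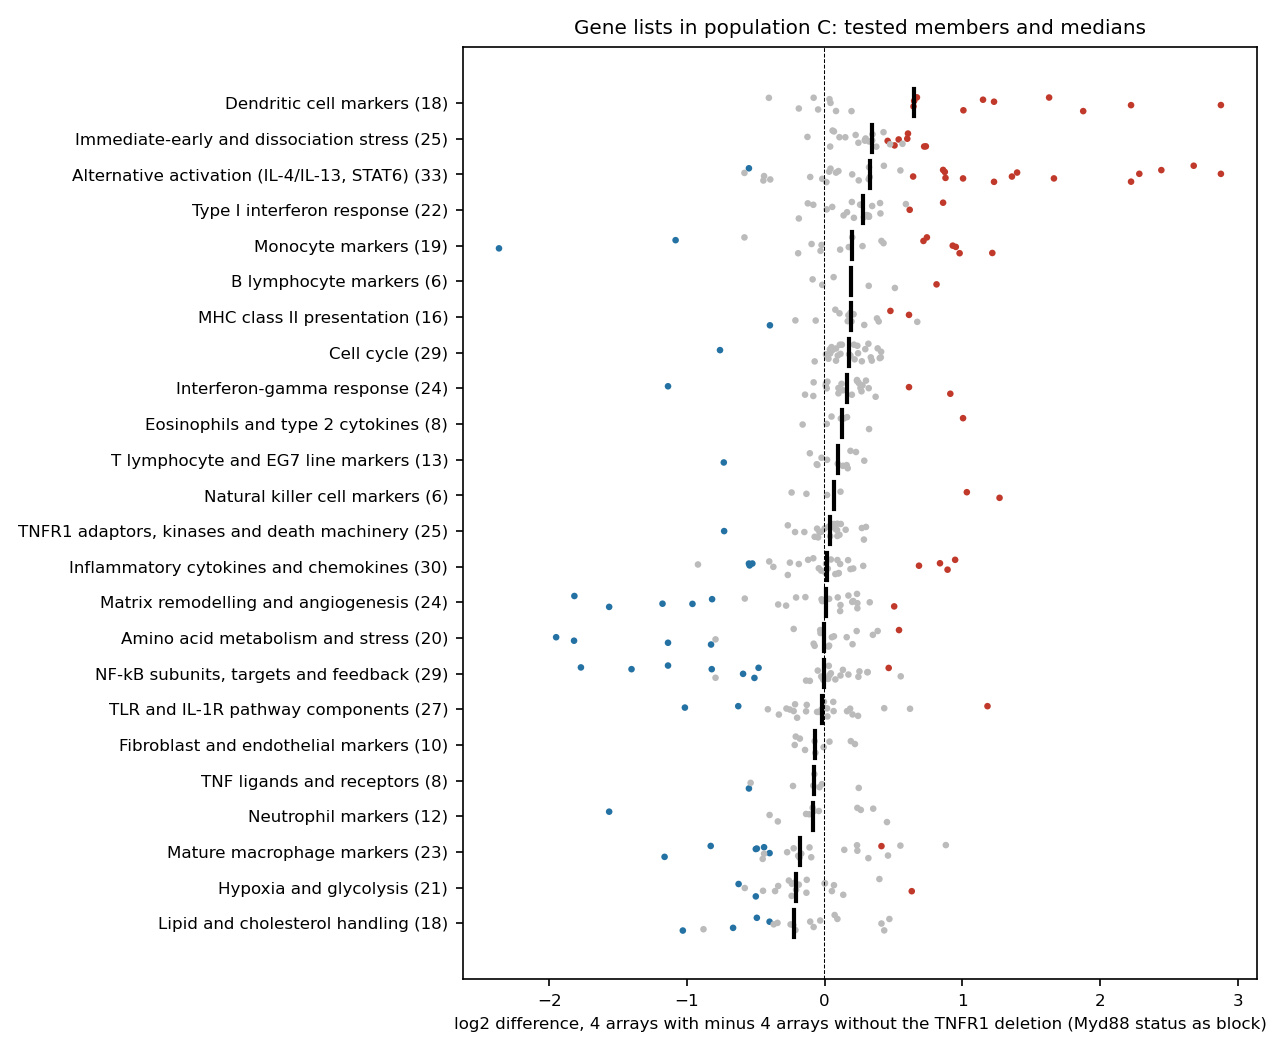
Difference (log2, TNFR1-null minus TNFR1-positive, with Myd88 status as block) of every tested member of 24 gene lists in population C; red points were called higher, blue called lower and grey not called, the black bar is the list's median, the number in brackets the genes tested and the dashed line the median of all genes. Dendritic cell markers have the highest median (0.65) and lipid and cholesterol handling the lowest (-0.22).

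The sequences upstream of the start sites were searched for the motif that STAT dimers bind, with the spacing that STAT6 prefers, TTCNNNNGAA, because Ccl17 and Retnla are known STAT6 targets. Of the 15 largest rises 13 had a promoter in the RefSeq table (GRCm38.p6), and 3 of them (23.1%) held this motif within 250 bases upstream, against 5.91% of 11868 tested genes, 8.93% of 168 genes called higher and 5.95% of 185 called lower. The 3 are shown 5' to 3' in the direction of the gene, ending at the base before the start site, with the motif in capitals. They were chosen because their genes rose most and hold the motif. Cd209e was among the genes tested only through its TNFR1-null arrays, as given above. Ccl17 lies at chr8:94810203-94810452 on the plus strand, Retnla at chr16:48842359-48842608 on the plus strand and Cd209e at chr8:3854287-3854536 on the minus strand.
Ccl17: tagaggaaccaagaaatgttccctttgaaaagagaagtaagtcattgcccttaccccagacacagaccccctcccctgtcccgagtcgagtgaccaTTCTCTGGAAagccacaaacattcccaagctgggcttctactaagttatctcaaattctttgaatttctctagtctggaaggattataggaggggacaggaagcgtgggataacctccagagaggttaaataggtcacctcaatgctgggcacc
Retnla: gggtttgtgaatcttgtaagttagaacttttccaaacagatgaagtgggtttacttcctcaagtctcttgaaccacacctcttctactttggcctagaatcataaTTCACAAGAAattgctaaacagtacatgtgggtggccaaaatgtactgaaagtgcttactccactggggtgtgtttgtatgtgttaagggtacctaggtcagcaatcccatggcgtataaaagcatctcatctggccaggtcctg
Cd209e: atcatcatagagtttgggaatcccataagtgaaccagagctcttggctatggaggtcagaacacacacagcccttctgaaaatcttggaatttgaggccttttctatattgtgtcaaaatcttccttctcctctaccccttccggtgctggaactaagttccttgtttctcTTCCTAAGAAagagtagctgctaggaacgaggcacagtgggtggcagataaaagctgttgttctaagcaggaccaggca
The first base of the motif lies at -154 in Ccl17, -145 in Retnla and -79 in Cd209e. The motif reads the same on both strands, so 1 search covers both. An NF-kB motif, GGGANNTTCC, searched on both strands, was present in 1.44% of all tested genes, in 2.98% of genes called higher and in 1.08% of those called lower, and in 0 of the 13 largest rises and 0 of the 12 largest falls with a promoter. A match is a run of letters and not a binding site, and motifs outside this window were not searched.

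Of 18 dendritic cell markers tested, 10 rose and 0 fell (55.6% called, against 3.14% of all genes), with a median of 0.65. The mean log2 signal of the list was 6.64 to 6.74 on the TNFR1-positive and 7.33 to 7.60 on the null arrays. Ccr7, the receptor that guides dendritic cells to lymph nodes, read 8.35 and 8.44 in WT, 8.01 and 8.07 in Myd88-deleted, 10.04 and 9.75 in TNFR1-/- and 10.16 and 10.43 in double-deletion arrays (1.88 ± 0.15, adjusted p = 1.53e-05). The tryptophan enzyme Kmo rose by 1.63 ± 0.18, Cd24a by 1.15 ± 0.13, the actin bundler Fscn1 by 1.01 ± 0.13, the transcription factor Batf3 by 0.67 ± 0.10 and the growth factor receptor Flt3 by 0.65 ± 0.15. Ccl17, Ccl22 and Irf4 are on this list and on that of alternative activation.

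Zbtb46, a defining transcription factor of classical dendritic cells, differed by 0.20 ± 0.10 (adjusted p = 0.487), the integrin Itgax by -0.41 ± 0.11 (adjusted p = 0.0735), and the subset markers Xcr1, Siglech and Cd209a by 0.04, 0.04 and 0.08. None of these 5 was called. The gate would also hold MHC class II-positive dendritic cells, and the part of a change in the share of such cells in these rises was not tested; in sorted bulk samples, more cells of a type and more RNA per cell cannot be told apart. The class II genes H2-Aa, H2-Ab1 and H2-Eb1 differed by 0.17, 0.21 and 0.20 (not called). Of 16 genes of class II presentation 3 were called (18.8%, against 3.14% of all genes). The transactivator Ciita (0.61 ± 0.12) and H2-DMa (0.48 ± 0.12) rose and the protease Ctss fell (-0.40 ± 0.09). The calls of H2-DMa and Ctss were lost without TNFR1-/- replicate 2 (adjusted p = 0.153 and 0.0956) and under most other omissions, and those of Ciita, H2-DMa and Ctss in the 16-array fit (adjusted p = 0.149, 0.753 and 0.729).

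Among the other large rises, Bex6 read 6.06 and 5.63 in WT, 4.91 and 5.33 in Myd88-deleted, 7.04 and 7.63 in TNFR1-/- and 8.47 and 7.55 in double-deletion arrays (2.19 ± 0.27). Plet1, a surface protein of epithelial and some myeloid cells, rose by 1.98 ± 0.26, and Stat4, the transcription factor that relays IL-12 signals, by 1.65 ± 0.17. The semaphorin Sema7a rose by 1.42 ± 0.13, the serpin Serpinb6b by 1.39 ± 0.13 and the neurturin receptor Gfra2 by 1.37 ± 0.19. The interferon-induced GTPase gene Gbp2b rose by 1.49 ± 0.27 (adjusted p = 0.0924 with a trended, robust variance), although whether its probes separate it from close relatives was not tested. Rnase2a, with a called rise of 2.69 ± 0.43 (adjusted p = 0.00318), had arms that overlapped: WT arrays read 4.57 and 4.20, TNFR1-/- 8.80 and 6.83, Myd88-deleted 8.53 and 8.46 and double-deletion arrays 9.59 and 11.32. It was named after its values were seen, and its rise was larger than that of every gene but Ccl17.

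The largest fall was that of H2-M2, a non-classical MHC class I gene, which read 9.29 and 10.18 in WT, 10.68 and 10.58 in Myd88-deleted, 6.89 and 6.08 in TNFR1-/- and 6.80 and 7.06 in double-deletion arrays. The arms were more than 2 log2 units apart, and the fall was -3.48 ± 0.20 (adjusted p = 7.67e-07). Saa3, an acute-phase protein that macrophages make, read 10.18 and 10.84 in WT, 10.36 and 10.58 in Myd88-deleted, 7.65 and 7.54 in TNFR1-/- and 7.35 and 6.33 in double-deletion arrays (-3.27 ± 0.22, adjusted p = 2.76e-06). Haptoglobin, Hp, which binds free haemoglobin, read 8.06 to 8.41 on TNFR1-positive and 5.59 to 6.28 on null arrays (-2.37 ± 0.13).

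Gpr84, a receptor of medium-chain fatty acids, read 8.10 and 7.55 in WT, 7.65 and 7.83 in Myd88-deleted, 5.75 and 5.77 in TNFR1-/- and 5.35 and 5.29 in double-deletion arrays (-2.24 ± 0.13, adjusted p = 7.67e-07). The formyl peptide receptor Fpr2 fell by 1.97 ± 0.18, the mycobacterial cord factor receptor Clec4e (Mincle) by 1.77 ± 0.30 (adjusted p = 0.141 with a trended, robust variance) and the lipopeptide receptor Tlr2 by 1.01 ± 0.15. Lysozyme 1, Lyz1, fell by 2.11 ± 0.27, and whether its probes separate it from Lyz2 was not tested. Of 27 genes of the Toll-like and IL-1 receptor pathways 3 were called (11.1%, against 3.14% of all genes). Tlr2 and Irak3 fell and the decoy receptor Il1r2 rose (1.18 ± 0.26). The calls of Irak3 and Il1r2 were lost without Myd88-deleted replicate 2 (adjusted p = 0.09 and 0.0542) and under other single omissions. Both were also lost in the 16-array fit (adjusted p = 0.142 and 0.281).

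Acod1, which makes itaconate, read 10.48 and 10.28 in WT, 10.31 and 9.99 in Myd88-deleted, 9.21 and 9.68 in TNFR1-/- and 7.91 and 6.46 in double-deletion arrays (-1.95 ± 0.37, adjusted p = 0.00979). The double-deletion arrays lay lowest, and the call was lost with a trended, robust variance (adjusted p = 0.221) and without the Myd88 block (adjusted p = 0.0701). The cystine transporter Slc7a11 fell by 1.82 ± 0.14 and Arg2 by 0.82 ± 0.18. Of 24 matrix and angiogenesis genes 5 fell and 1 rose (25% called, against 3.14% of all genes), with a median of 0.0075. The gelatinases Mmp2 (-1.82 ± 0.20) and Mmp9 (-1.56 ± 0.19), the membrane protease Mmp14 (-1.18 ± 0.11) and the growth factors Pdgfb (-0.82 ± 0.14) and Igf1 (-0.96 ± 0.17) fell, and Plau rose (0.51). Among the other large falls were the ubiquitin ligase Rnf128 (-1.90 ± 0.12), the Notch ligand Jag1 (-1.74 ± 0.21), the caveolar protein Cav1 (-1.62 ± 0.21) and the phosphodiesterase Gdpd1 (-1.58 ± 0.14).

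Of 33 genes of the TNF pathway itself 2 were called (6.06%, against 3.14% of all genes). Of 8 TNF-family ligands and receptors, 1 was called: the other TNF receptor, Tnfrsf1b, read 10.15 and 9.89 in WT, 9.85 and 9.95 in Myd88-deleted, 9.62 and 9.58 in TNFR1-/- and 9.50 and 8.94 in double-deletion arrays (-0.55 ± 0.13, adjusted p = 0.0322). This call was lost without double-deletion replicate 2 (adjusted p = 0.0821) and without 4 other arrays, in the 16-array fit (adjusted p = 0.215) and without the Myd88 block (adjusted p = 0.0708). Tnf, the ligand, differed by -0.07 ± 0.14 (adjusted p = 0.901). Of 25 adaptors, kinases and death genes, 1 was called: Adam17, the protease that sheds TNF and its receptors, fell by 0.73 ± 0.11 (adjusted p = 0.00237), with arrays at 8.81 to 9.22 against 8.14 to 8.33; its adjusted p was 0.0526 in the 16-array fit. The adaptor Tradd (-0.04), the ligase Traf2 (-0.05), caspase 8 (Casp8, 0.27) and Ripk3 (0.30) were not called.

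Of 29 NF-kB subunits, targets and feedback genes, 7 fell and 1 rose (27.6% called, against 3.14% of all genes), with a median of -0.01. Sod2, the mitochondrial superoxide dismutase, read 10.99 and 10.85 in WT, 10.82 and 10.51 in Myd88-deleted, 9.49 and 9.80 in TNFR1-/- and 9.26 and 9.01 in double-deletion arrays (-1.40 ± 0.12, adjusted p = 3.23e-05). The inducible nitric oxide synthase Nos2 fell by 1.14 ± 0.16, Tnfaip2 by 0.82 ± 0.16, the A20-binding inhibitor Tnip1 by 0.59 ± 0.14, and the adhesion molecules Icam1 and Vcam1 by 0.51 ± 0.12 and 0.48 ± 0.11. Cd83 rose by 0.47 ± 0.10. The feedback inhibitors Nfkbia (0.12 ± 0.10) and Tnfaip3 (-0.11 ± 0.13) and the subunits Rela, Nfkb2 and Relb (0.04, -0.01 and -0.14) were not called. The count of falls was 4 to 7 when each array was left out in turn and 3 in the 16-array fit, where Tnfaip2 was among the calls lost (adjusted p = 0.0974).

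Inflammatory cytokines moved in both directions: 4 of 30 rose and 3 fell (23.3% called, against 3.14% of all genes), with a median of 0.02. The monocyte-attracting chemokine Ccl7 read 10.33 and 10.23 in WT, 10.34 and 10.16 in Myd88-deleted, 11.35 and 11.29 in TNFR1-/- and 11.08 and 11.13 in double-deletion arrays (0.95 ± 0.09, adjusted p = 0.000121). Its relatives Ccl2 and Ccl12 rose by 0.84 ± 0.11 and 0.69 ± 0.11, and Il6 by 0.89 ± 0.18. The calls of Ccl2 and Ccl12 were lost in the 16-array fit (adjusted p = 0.125 and 0.0699). The IL-12 subunit Il12a fell by 0.55 ± 0.10, Cxcl16 by 0.55 ± 0.10 and Ccl5 by 0.53 ± 0.13. Il1b (-0.04 ± 0.15) was not called. Of 22 type I interferon genes 2 rose (Usp18 and Ifitm3) and 0 fell (9.09% called, against 3.14% of all genes). Of 24 interferon-gamma genes Ciita and Gbp4 rose and Nos2 fell (12.5% called). The call of Ifitm3 was lost without double-deletion replicate 1 (adjusted p = 0.0839) and that of Gbp4 without WT replicate 2 (adjusted p = 0.0869), among others. Both were also lost in the 16-array fit (adjusted p = 0.405 and 0.281).

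Of 23 mature macrophage markers 6 fell and 1 rose (30.4% called, against 3.14% of all genes), with a median of -0.18. The count of falls was 3 to 7 when each array was left out in turn, with 3 without TNFR1-/- replicate 2 and without either Myd88-deleted array, and the 16-array fit gave 0, with adjusted p = 0.0645 for Gpnmb, 0.0892 for Ms4a7 and 0.432 for Csf1r. Gpnmb, a lysosomal glycoprotein, read 10.94 and 11.37 in WT, 11.29 and 11.23 in Myd88-deleted, 10.62 and 9.36 in TNFR1-/- and 10.07 and 10.13 in double-deletion arrays (-1.16 ± 0.20). Ms4a7 fell by 0.83 ± 0.16 and the growth factor receptor Csf1r by 0.50 ± 0.10, Maf rose by 0.41, and the complement genes C1qa, C1qb and C1qc differed by -0.19, -0.10 and -0.27 (not called). Of 18 lipid genes 4 fell and 0 rose (22.2% called, against 3.14% of all genes). They were the cholesterol exporter Abca1 (-1.03 ± 0.15), the lysosomal lipase Lipa (-0.67 ± 0.12), the lipid receptor Trem2 (-0.49 ± 0.10) and Apoe (-0.40 ± 0.10). The calls of Trem2 and Apoe were lost without TNFR1-/- replicate 2 (adjusted p = 0.0817 and 0.154), among other omissions, and those of Lipa, Trem2 and Apoe in the 16-array fit (adjusted p = 0.318, 0.489 and 0.249).

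Of 19 monocyte markers 6 rose and 2 fell (42.1% called, against 3.14% of all genes). The versican gene Vcan rose by 0.74 ± 0.13, Ccr2, the receptor of Ccl2, by 0.72 ± 0.14, and Ifitm6 by 1.22 ± 0.23, while Hp and the integrin Itgal (-1.08 ± 0.12) fell. Ly6c2 differed by 0.28 ± 0.24 (adjusted p = 0.745). The count of rises was 2 to 6 when each array was left out in turn and 0 in the 16-array fit (adjusted p = 0.454 for Vcan and 0.173 for Ifitm6). The mean log2 signal of the list was 7.92 to 8.37 on the TNFR1-positive and 8.01 to 8.43 on the null arrays, and the part of any monocytes in these results was not tested.

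Immediate-early and heat shock genes, which cell isolation can also induce, rose in 7 of 25 cases and fell in 0. This was 28% called, against 3.14% of all genes, with a median of 0.35. The heat shock genes Hspa1b (0.73 ± 0.10), Hsph1 (0.72 ± 0.12) and Hspa1a (0.51 ± 0.10) and the transcription factor Klf2 (0.60 ± 0.12, adjusted p = 0.0544 without TNFR1-/- replicate 2) were among the rises. Whether the probes separate Hspa1a from Hspa1b was not tested. The mean log2 signal of the list was 9.22 to 9.56 on the TNFR1-positive and 9.51 to 9.92 on the null arrays. Left out one at a time, the arrays gave 3 to 8 rises, and the fit over 16 arrays gave 0. Fos, Fosb, Jun and Dusp1 differed by 0.07, 0.06, 0.15 and 0.04.

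Of 29 cell cycle genes 1 was called (3.45%, against 3.14% of all genes): Bub1b fell (-0.76 ± 0.11), although 27 of 29 had a positive difference and the median was 0.18. The list's median was -0.015 in Myd88-positive hosts and 0.38 in Myd88-deleted hosts. Mki67 differed by 0.06. Of 21 hypoxia and glycolysis genes 3 were called (14.3%): Pfkl (-0.62 ± 0.10) and Slc16a3 (-0.50 ± 0.11) fell and Ndrg1 (0.63 ± 0.14) rose, the last with a second probe set at 0.35 (adjusted p = 0.334). The calls of Ndrg1 and Slc16a3 were lost without Myd88-deleted replicate 1 (adjusted p = 0.0635 and 0.0898), among other omissions, and none of the 3 was called in the 16-array fit (adjusted p = 0.229 for Pfkl, 0.791 for Slc16a3 and 0.336 for Ndrg1). Of 20 genes of amino acid metabolism and stress 5 were called (25%, against 3.14% of all genes). Slc7a11, Nos2, Acod1 and Arg2 fell and Psat1, of serine synthesis, rose (0.54 ± 0.11). The call of Psat1 was lost without Myd88-deleted replicate 2 (adjusted p = 0.069) and in the 16-array fit (adjusted p = 0.0775).

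Of 55 tested markers of other cell types 6 were called (10.9%, against 3.14% of all genes). Of 12 neutrophil markers tested 1 was called (Mmp9, lower), with list means of 6.08 to 6.29 on TNFR1-positive and 5.91 to 6.15 on null arrays. S100a8 and Ly6g were above the 40th percentile on 1 and 2 of 8 arrays, and S100a9 and Retnlg on 8 and 4. Of 13 T-lymphocyte and EG7 markers 1 was called (Cd4, -0.73 ± 0.11, limma adjusted p = 0.095 in the 16-array fit), with list means of 5.88 to 6.26 and 5.85 to 6.29. The EG7-line marker Trap1a was above that percentile on 0 of 8 arrays, whereas Cd3d, Cd3e and Cd3g were above it on 8 of 8. Cd3e read 6.29 to 6.94 on TNFR1-positive and 6.31 to 7.31 on null arrays. Of 6 natural killer markers Klrd1 and Klrk1 rose, with list means of 5.76 to 5.95 and 6.02 to 6.33, and Ncr1 differed by 0.02. Of 6 B-lymphocyte markers Cd79b rose (0.81 ± 0.17), a call lost without Myd88-deleted replicate 2 (adjusted p = 0.0525), with list means of 5.20 to 5.43 and 5.38 to 5.84, and of 10 fibroblast and endothelial markers 0 were called, with list means of 6.10 to 6.22 and 5.99 to 6.18 (0 at an unadjusted p under 0.05 in limma). Of 8 eosinophil and type 2 cytokine genes Alox15 alone was called, with list means of 5.49 to 5.83 and 5.70 to 6.02. The part of these cells in the results was not tested. Of the called markers Klrd1, Klrk1 and Cd4 start within 10 Mb of Tnfrsf1a, where strain differences cannot be told apart from the deletion, as given below.

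The comparison was then made within each Myd88 status. The 2 differences share no array, but both come from 1 fit of 4 group means. Their p-values therefore rest on 1 variance per gene, estimated from the arrays of all 4 genotypes. A gene with little spread can pass both tests, so calls in both are not independent. In Myd88-positive hosts (TNFR1-/- against WT) 80 genes were called (0.527%), 31 higher (0.204%) and 49 lower (0.323%), and in Myd88-deleted hosts (double deletion against the Myd88 deletion alone) 286 (1.88%), 132 higher (0.869%) and 154 lower (1.01%). Of the 80, 77 (96.2%) had the same sign in Myd88-deleted hosts and 65 were called there too; of the 286, 268 had the same sign in Myd88-positive hosts. Over all genes tested 56.2% had the same sign. Counts with 2 arrays against 2 hang on single arrays: without WT replicate 2 the first was 23 and without TNFR1-/- replicate 2 it was 27, and without Myd88-deleted replicate 1 the second was 79, without replicate 2 it was 138, and without double-deletion replicates 1 and 2 it was 184 and 163. Xist was high on 3 of the 4 arrays of Myd88-positive and on 1 of the 4 arrays of Myd88-deleted hosts, and with its level as a block the counts were 44 and 123. In the 16-array fit they were 12 and 78. The Myd88 signal of the double-deletion pair, given above, was higher than that of the Myd88-deleted pair it was compared with, and the part of this in the second count was not tested.

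No gene's TNFR1 difference was shown to depend on Myd88: the test of the difference called 0 genes (0%) in limma, with 825 at an unadjusted p under 0.05, 24 called without double-deletion replicate 1 and 3 without replicate 2. Among the 15 largest rises 14 were larger in Myd88-deleted hosts, and 13 of the 15 largest falls were, yet none of the 30 passed that test. The same share among all called genes was not counted, so these counts only describe the 30 genes. Predicted genes left aside, the 3 smallest p-values for a more negative difference in Myd88-deleted hosts went to Cxcl3, Il1a and Il10. Those for a more positive difference went to Fcrls, Rny1 and Rrm2. The chemokine Cxcl3 read 6.83 and 6.78 in WT, 7.49 and 7.50 in TNFR1-/-, 8.01 and 7.59 in Myd88-deleted and 6.39 and 6.82 in double-deletion arrays. Il1a differed by -0.11 in Myd88-positive and by -1.73 in Myd88-deleted hosts, and Il10 by 0.85 and -0.44. Xist and the Y-linked Sly, at -2.50 and 2.49 and at 2.05 and -3.12, lay farther from equality.

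**Figure D3:**
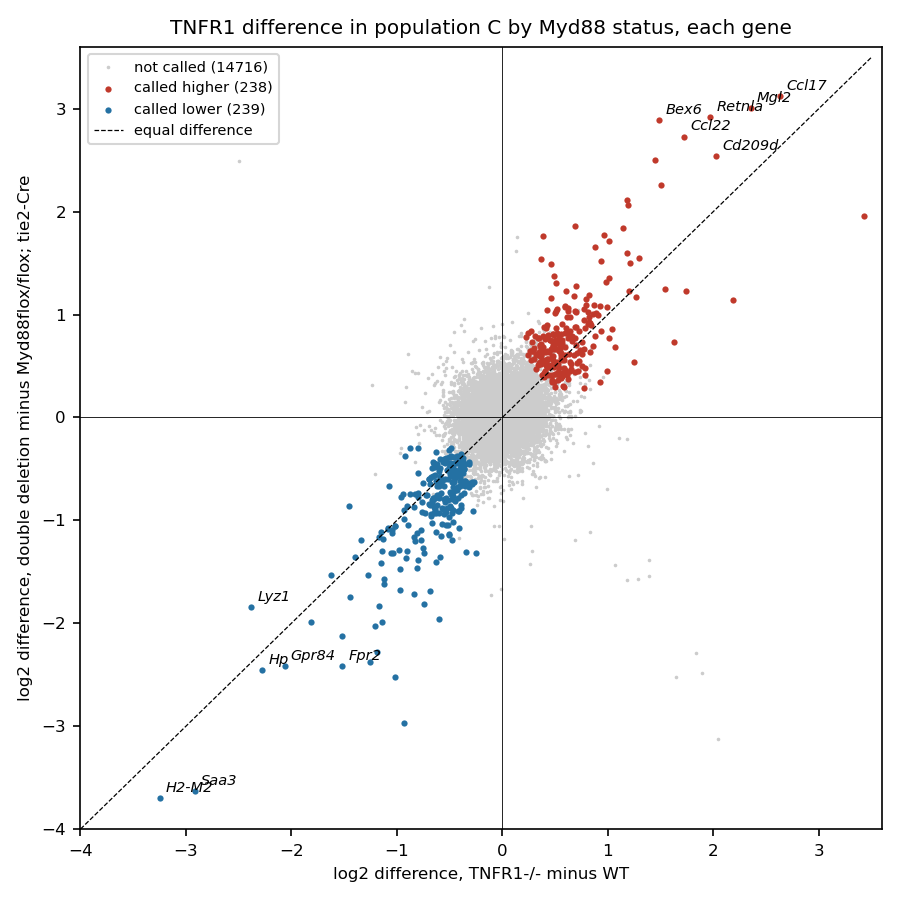
Difference with the TNFR1 deletion (log2) in Myd88-positive hosts (x axis, 2 arrays against 2) and in Myd88-deleted hosts (y axis, 2 against 2), 1 point per gene; red and blue mark the 238 genes called higher and the 239 called lower over all 8 arrays, and the dashed line marks equality. A call rests on the mean of both axes, so coloured points lie along the line by construction; the grey points far off it at lower right and upper left include Sly and Xist.

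Population A, the Ly6C-positive, MHC class II-negative cells of the same 4 genotypes, gave a smaller count: 29 of 15902 genes called in a fit of all 16 arrays (0.182%), 7 higher (0.044%) and 22 lower (0.138%), where population C had 180 in the same fit. That count was 628 without WT replicate 2, 485 without double-deletion replicate 2 and 124 without TNFR1-/- replicate 1 of population A, and 3 to 31 without any other single array. It was 10 with a replicate block and 3 with Xist level as a block. Of the 477 genes called in C, 356 (74.6%) had the same sign in A, against 58.1% of all genes.

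The TNFR1 difference itself differed between the populations for 17 genes (0.107%), 16 of them higher in C (0.101%) and 1 lower (0.00629%). Ccl17 rose by 2.88 in C and differed by -0.32 ± 0.22 in A, so that the difference between populations was 3.20 ± 0.31 (limma adjusted p = 0.000372). Mgl2 (2.84 ± 0.23), Ccl22 (2.39 ± 0.31), Ccr7 (2.37 ± 0.28), Cd209d (2.35 ± 0.22), Plet1 (2.08 ± 0.31) and Kmo (1.65 ± 0.27) were likewise higher in C, as were Stat4, Gfra2, Fscn1, Edn1, Ednrb, Net1, Cbr2 and Zfp366. For the last of the 16, the endothelial cadherin Cdh5, the difference lay in A (-1.55) and not in C (-0.07). Gclm, a subunit of the enzyme that starts glutathione synthesis, fell in C (-1.08 ± 0.10) and differed by -0.01 ± 0.12 in A. Several of these genes were dim in A. On the A arrays Ccl17 read 4.79 to 6.11, Cd209d 4.76 to 5.49 and Mgl2 5.21 to 6.28, beside medians of 5.31 to 5.40 on the C arrays. Ccl22 (5.32 to 7.35) and Ccr7 (6.55 to 7.90) reached higher signals in A. The part of these low signals in the differences was not tested. Ccl17, Mgl2, Ccl22, Ccr7 and Cd209d were called without each of the 16 arrays in turn, Gclm in 4 of those 16 fits, and the count of genes was 8 to 54.

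Of the 15 largest rises in C 8 were positive in A and 0 were called there. Of the 15 largest falls in C, 14 were negative in A and 2 were called there, H2-M2 (-1.63 ± 0.30, adjusted p = 0.0466) and Gpr84 (-1.56 ± 0.15, adjusted p = 0.000602), and 0 of the 15 passed the test of the difference between populations, against 9 of the 15 largest rises. Mmp9 was the exception in sign (0.92 ± 0.37 in A). Mmp14 (-1.74 ± 0.23), Gpnmb (-1.53 ± 0.27) and Ms4a7 (-1.33 ± 0.21) were called lower in A in the 16-array fit and in C in the 8-array fit. In the 16-array fit Mmp14 was called in C too, and Gpnmb and Ms4a7 were not (limma adjusted p = 0.0645 and 0.0892).

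**Figure D4:**
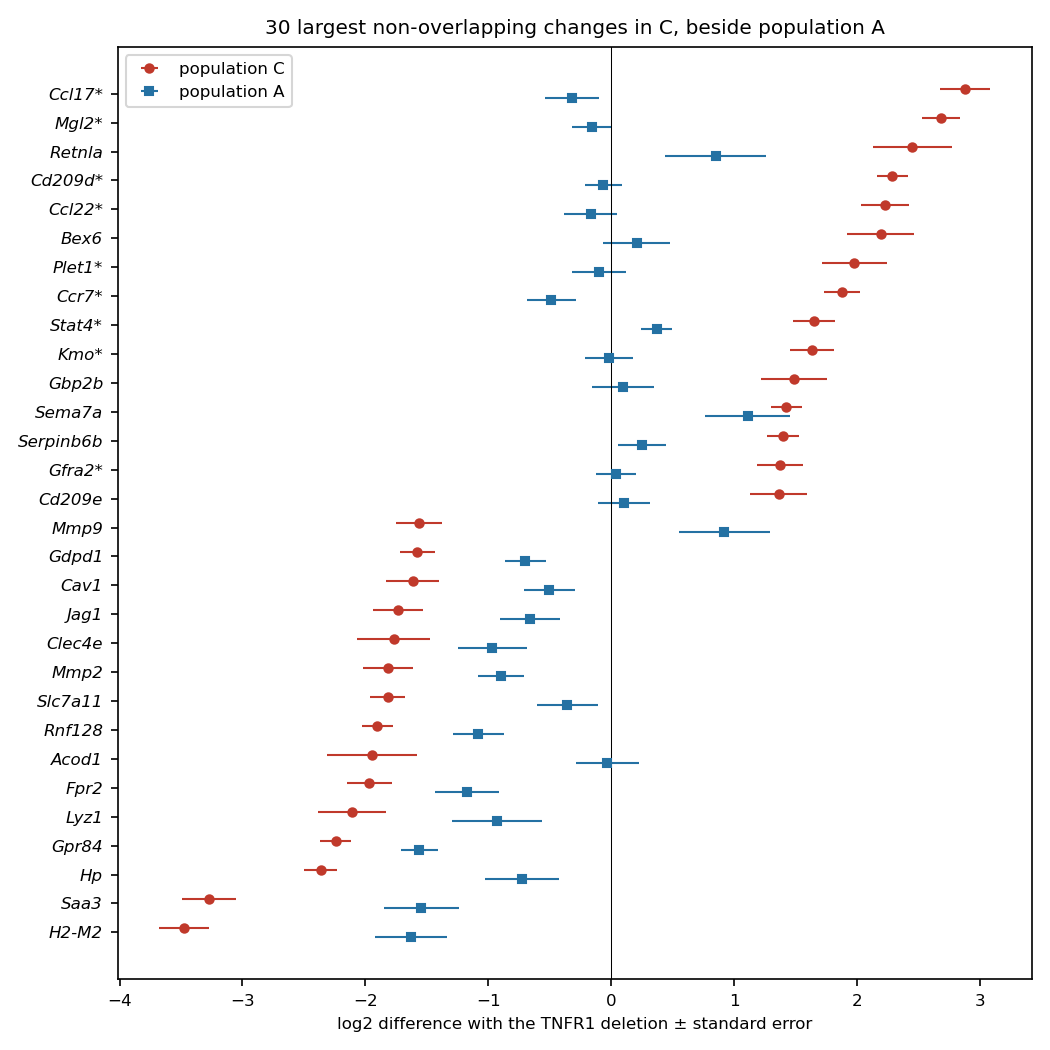
Difference with the TNFR1 deletion (log2, with standard errors) of the 30 genes of largest change in population C (red circles, 8 arrays) beside the same genes in population A (blue squares, 8 arrays); a star marks genes whose difference between the populations was called. The 9 starred genes are all rises, and their values in A lie between -0.49 and 0.37.

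A germline deletion is bred with the chromosome around it. Of 187 tested genes that start within 10 Mb of Tnfrsf1a on chromosome 6, 18 were called (9.63%, against 3.14% of all genes), 7 higher and 11 lower, with a median of -0.01. They included the killer lectin genes Klrd1 (1.03 ± 0.13), Klrk1 (1.27 ± 0.18) and Klri1 (0.95 ± 0.20), the neighbouring lectins Clec4e, Clec4d (-1.28 ± 0.20) and Clec4n (-0.68 ± 0.12), and Ccnd2, Cd9, Cd4, Usp18 and Pparg, several of which stand in the lists above. The count was 11 to 19 when each array was left out in turn, 11 without Myd88-deleted replicate 1, and 10 in the fit over 16 arrays. Strain differences in this region cannot be told apart from the deletion here.

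**Figure D5:**
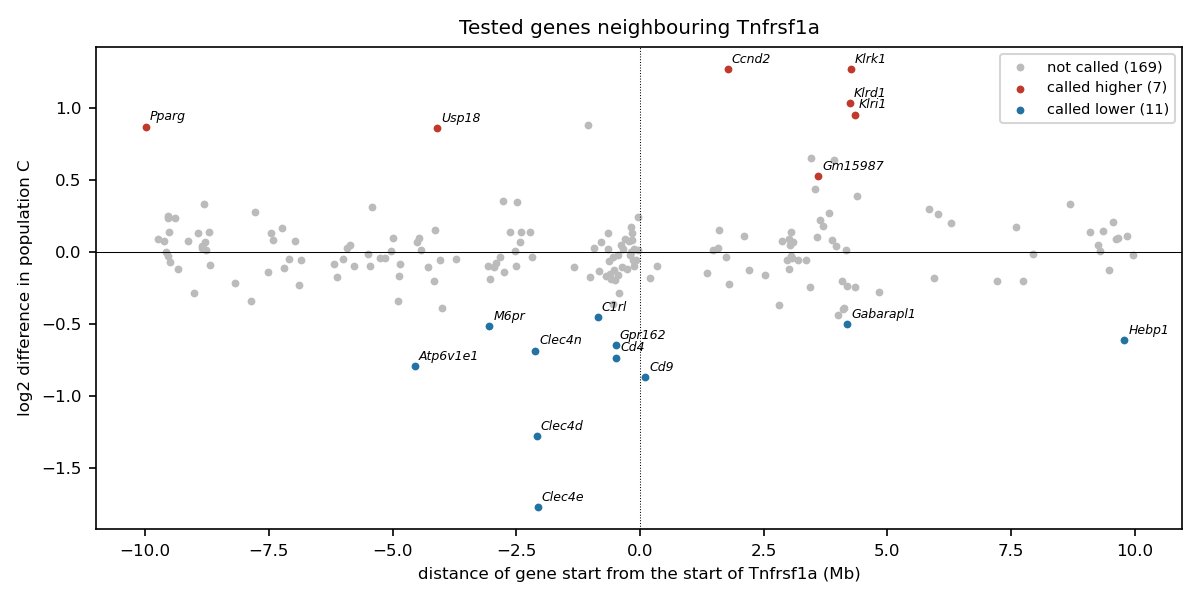
Difference in population C (log2, TNFR1-null minus TNFR1-positive) of the 187 tested genes within 10 Mb of Tnfrsf1a against the distance of their start from that of Tnfrsf1a in megabases; red points were called higher (7), blue lower (11) and grey were not called. Called genes lie on both sides, at 0.11 Mb (Cd9) to 9.99 Mb (Pparg) from Tnfrsf1a.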

How the data were processed

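RNA (100 ng per array) was hybridised to Mouse Gene 2.0 ST arrays. Per the submitters' processing notes, the authors used RMA (Affymetrix Expression Console 1.1), and the deposited table holds 1 log2 signal for each probe set and array. RMA removes global shifts in RNA content, and arrays have no depth, so their number limits precision. Of 41345 probe sets 23521 had 1 gene symbol, 1814 several and 16010 none, and 23328 matched the GRCm38.p6 gene table. Each gene was represented by its brightest probe set, and a gene was tested when it lay above the 40th percentile on at least 4 of the 8 arrays.

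limma 3.58.1 in R 4.3.3 (lmFit and eBayes) fitted TNFR1 status with Myd88 status as a block. Differences within each Myd88 status used 4 group means, and those between populations 8 group means over 16 arrays. All adjusted p-values are limma's, by Benjamini-Hochberg over all genes tested. The fits were tested on simulated data. Named genes were the 15 largest called, non-overlapping rises and falls, up to 4 of smallest p per list, and up to 5 per difference test; other list members are named to show the list. Members and lists were chosen with earlier results of these data known, so the counts per list are descriptions and not tests. Arrays were alternatively refiltered, rescaled, reweighted, blocked and left out in turn. The HT_MG-430_PM arrays were not used.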

Additional observations from a re-analysis of the deposited data

Results flagged for a closer look

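Among the 30 genes of largest change, Tnfrsf1a and Myd88, the 4 TNFR1-positive and 4 TNFR1-null arrays gave 64 groups of 4 values, of which 2 had an array far from the others; chance gives about 1 in 20 such groups. Cav1 read 7.50 on Myd88-deleted replicate 1, above 6.28 to 6.39 on the other TNFR1-positive arrays. Gdpd1 read 8.05 on Myd88-deleted replicate 2, below 8.34 to 8.38 on the others.

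The TNFR1 difference in population C minus that in population A was called for 17 genes by the test of the difference. Among those named, it was 3.20 for Ccl17, 2.84 for Mgl2, 2.39 for Ccl22, 2.37 for Ccr7, 2.35 for Cd209d and -1.07 for Gclm. With Xist level as a block, added after the data were seen, 9 genes were called, all higher in C.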

How the results depend on the processing

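The count of 477 called genes was 180 in the fit over all 16 sorted arrays and 368 to 546 under the other settings, which were no Myd88 block, cell means, no filter or a stricter one, all or mean probe sets, renormalisation, median centring, trended and robust variance, array weights and Xist level as a block. It was 275 to 456 with 1 array left out, and the share of rises, 49.9%, was then 40.4% (without Myd88-deleted replicate 2) to 60.3% (without WT replicate 1). The 16-array fit gave 10 called neighbours of Tnfrsf1a, 12 genes in Myd88-positive and 78 in Myd88-deleted hosts. Xist level as a block, added after the data were seen, gave 44 and 123 genes in these hosts, 9 between the populations and 3 in population A. With 1 array left out, the counts were 11 to 19 for neighbours, 23 to 104 in Myd88-positive hosts, 79 to 301 in Myd88-deleted hosts, 0 to 24 for the difference by Myd88 status, 8 to 54 between populations and 3 to 628 in population A. For the difference between populations, the arrays that moved the count by over 1.5 times were, in C, Myd88-deleted replicates 1 (11) and 2 (8), and in A, WT replicate 2 (41), TNFR1-/- replicates 1 (35) and 2 (11) and double-deletion replicate 2 (54). Of 599 values of the 30 genes of largest change, 591 kept their direction and side of the threshold and 8 lost the call. Of 1694 values of 85 named genes, 1558 kept both; Cxcl3, not called, turned from -0.25 to 0.020 without Myd88-deleted replicate 1 and to 0.022 without double-deletion replicate 1 (-0.451 to 0.022 over all omissions). Of the 75 called among the 85, 32 lost the call in the 16-array fit, 9 without the Myd88 block, 8 with trended and robust variance (Retnla, Cd209e, Gbp2b, Clec4e, Acod1, Il1r2, Gbp4 and Ifitm6) and 2 with Xist level as a block (Apoe and H2-DMa).

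The labels number the replicates 1 and 2 in each genotype. Same-numbered arrays deviated together in part: the correlation was over 0.1 for 3 of 6 pairs of genotypes (0.13 to 0.27) and -0.12 to -0.02 for the 3 pairs with TNFR1-/-. The numbers were therefore not used as pairs, although a partial pairing is possible. With the replicate block 499 genes were called in population C (243 higher), 86 and 322 in Myd88-positive and Myd88-deleted hosts, 0 for the difference by Myd88 status, 15 between the populations and 10 in population A.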

Other observations

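Further gene groups were assembled after the values were seen, so their counts describe these arrays and support nothing. Of all genes tested 1.57% were called lower and 1.57% higher. Of 25 tested genes of glutathione and antioxidant metabolism 13 were called lower and 0 higher, with a median of -0.46, beside -0.07 in population A. They included the transcription factor Nfe2l2 (-0.55 ± 0.11), the cystine transporter Slc7a11, Gclm, the sulfiredoxin Srxn1 (-0.72 ± 0.12), glutathione reductase Gsr (-0.65 ± 0.11), the thioredoxin reductase Txnrd1 (-0.47 ± 0.11) and the pentose phosphate enzyme Pgd (-0.65 ± 0.10), whereas Hmox1 (0.01 ± 0.11) and Gclc (-0.20 ± 0.09) were not called. An antioxidant response motif, TGACNNNGC on either strand, lay within 250 bases upstream of 10.8% of genes called lower, 20.8% of those called higher and 12.9% of all genes tested with a promoter.

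Of 34 lysosome and osteoclast-linked genes 17 were called lower and 0 higher, with a median of -0.47 in C and -0.39 in A. The acid phosphatase Acp5 fell by 1.22 ± 0.12, the kinase Src by 1.32 ± 0.15, the mannose 6-phosphate receptor gene Igf2r by 1.08 ± 0.14, the collagen-degrading protease Ctsk by 1.22 ± 0.27 and the proton pump subunit Atp6v1e1 by 0.79 ± 0.10. The arms of Ctsk overlapped (8.37 to 10.23 on TNFR1-positive and 6.75 to 8.58 on null arrays). Atp6v1e1 and M6pr, also called lower, lie on chromosome 6, as does Tnfrsf1a. For them, strain differences bred along with the deletion cannot be told apart from it. Of 12 acute-phase and secreted defence genes 6 were called lower, among them the protease inhibitor Slpi (-1.50 ± 0.15), complement factor B, Cfb (-1.13 ± 0.15), and Orm1 (-1.02 ± 0.18), while Lcn2 (-0.08 ± 0.13) was not called.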
